A study of Drosophila melanogaster with 2 samples.

Results

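The genes described here are 41 members of the Polycomb and trithorax groups of Drosophila melanogaster, 23 on the Polycomb side and 18 on the trithorax side, out of 13986 protein-coding genes. They were chosen by name as subunits or partners of the complexes of these groups, after their peaks had been seen in an earlier look at the same data, so the counts below describe the members and no test is made of them. Chromatin immunoprecipitation and sequencing (ChIP-seq) located a tagged Bowl protein in whole embryos, collected at 0 to 24 h of age as 2 biological replicates. The flies are a bowl-GFP strain with an insertion targeting bowl that express bowl-eGFP fusion proteins, and chromatin was pulled down with an antibody against GFP, as the labels give it. Both replicates belong to 1 group, Bowl-eGFP embryo, with no untagged or mutant group beside it. The control that the labels name was not analysed here.

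The binding was read from whole embryos of mixed age and all tissues. A strong signal in few cells and a weak one in many cells cannot be told apart in such material. Peak lists hold no expression values, so the labelled tissue could not be set against marker genes, and they do not separate the tagged copy of bowl from another copy. The lists hold no read counts and the read depth is unknown.

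Polycomb and trithorax group proteins keep the expression states of developmental genes through many cell divisions. Polycomb repressive complex 2 (PRC2) methylates histone H3, Polycomb repressive complex 1 (PRC1) binds that mark, compacts chromatin and ubiquitylates histone H2A, the Pho repressive complex (PhoRC) binds DNA, and the Polycomb repressive deubiquitinase (PR-DUB) removes ubiquitin from H2A. Trithorax group proteins oppose them through histone methylases of the active state, the nucleosome remodeller Brahma, the kinase module of Mediator and DNA-binding proteins such as the GAGA factor. Bowl belongs to the odd-skipped family of zinc-finger transcription factors and is known for its part in the gut and in leg joints.

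Of the 41 members, 14 had a peak of the pooled list nearest to one of their transcription start sites (TSSs), 34.1% (95% exact binomial interval 20.1 to 50.6), beside 11.7% of all protein-coding genes. Intervals here cover counting error over genes or peaks and not the spread between embryo collections. The pooled list is the larger of the deposited peak lists made from both replicates together. Its 2198 peaks include 21 at members, which is 0.955%. One peak each lay at 8 members, 2 peaks each at 5 and 3 peaks at ph-p. The share of members with 2 or more peaks was 14.6% (6 members), beside 2.57% of all genes.

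By complex, the counts are small. Among PRC1 genes 4 of 7 had a peak, among other Polycomb group genes 3 of 4 and among PRC2 genes 2 of 7, while 0 of 3 PhoRC genes and 0 of 2 PR-DUB genes had one. On the trithorax side the 4 genes outside the complexes gave 3 with a peak, the 5 histone methylation genes 1, the 7 Brahma genes 1 and the 2 Mediator kinase module genes 0. Together this made 9 of 23 Polycomb members (39.1%, interval 19.7 to 61.5) and 5 of 18 trithorax members (27.8%, interval 9.69 to 53.5), and these intervals overlap widely.

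**Figure D1:**
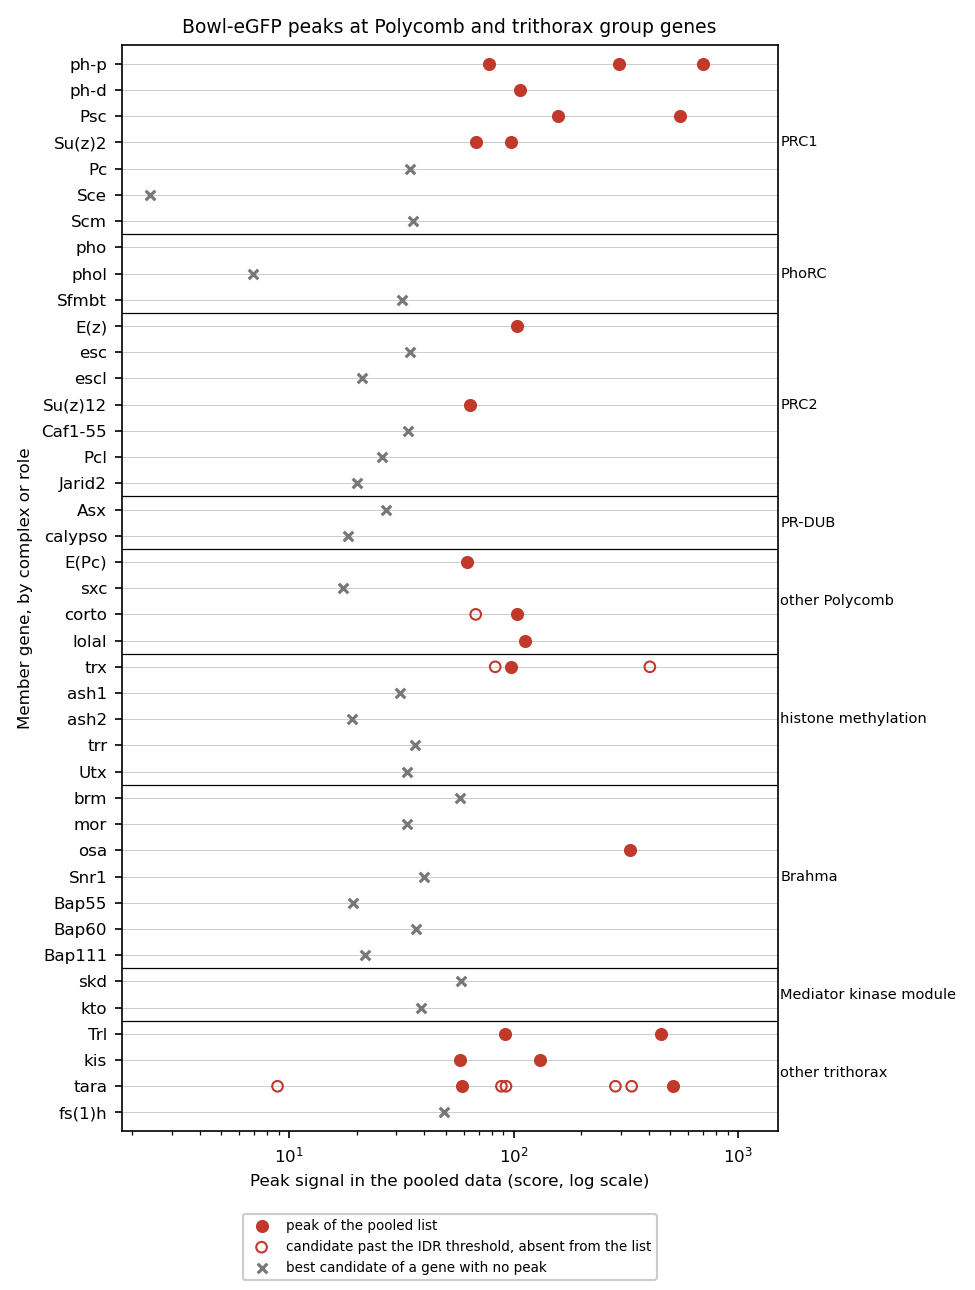
Peak signal in the pooled data, a score on a log axis, for the 41 members in rows by complex. Filled circles are peaks of the pooled list, open circles are candidates past the threshold that the list lacks, and crosses are the best candidate of a gene with no peak; PRC1 holds the highest value, 696 at ph-p, and no cross passes 58.3.

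Several of the members' peaks were among the strongest in the genome. Signal is a score from the authors' peak caller without a stated scale, used here only within a list. Every pooled peak had a −log10 irreproducible discovery rate (IDR) of 2 or more, where a higher value means that the rank of the region repeated better. This value is from the ranked list matched to the pooled list and not from the list that compares the 2 replicates. The 21 peaks had a median signal of 103 (range 57.5 to 696), beside 82.6 (2.15 to 1467) for all pooled peaks and 18.4 for candidate regions that failed the threshold. Of the 100 strongest peaks in the list, 6 lay at members, at 5 genes, which is 12.2% of the members beside 0.701% of all genes; the cutoff of 100 was taken after the values had been seen. Their order was ph-p, Psc, tara, Trl, osa and ph-p again. At or above the median signal of the list, 29.3% of members (12 genes) had a peak, beside 6.71% of all genes.

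The ph locus on the X chromosome carried the strongest of these peaks. ph-p and ph-d are tandem copies, 2923 bp apart, that encode the Polyhomeotic subunits of PRC1. At ph-p the signal of the strongest peak was 413 in replicate 1 and 290 in replicate 2, with 696 in the pooled data, rank 7 of 2198. Its summit lay 501 bp upstream of an internal TSS, inside an intron of the longest transcript, 1 bp beyond the 500 bp used for promoters. A second ph-p peak, in the promoter 478 bp downstream of the first TSS and 537 bp from the first summit, had a signal of 188 in replicate 1 and 114 in replicate 2 (296 pooled, rank 97). Both peaks stood in the list of either replicate. The weakest ph-p peak, in an intron 1229 bp downstream of a TSS, had 59.2 in replicate 1 and 18.5 in replicate 2 (77.7 pooled), and only the list of replicate 1 held it.

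The ph-d peak lay 779 bp upstream of its TSS, with a signal of 60.7 in replicate 1 and 36.4 in replicate 2 (107 pooled, rank 707). It was in the list of replicate 1 and not in that of replicate 2. Its level was below both stronger ph-p peaks in either replicate. Whether the 2 genes share the bound sequence was read from the genome, with an alignment chosen after the values had been seen. The second ph-p peak aligned without gaps to the ph-d upstream region under the ph-d peak, with 60 of 79 bases identical (75.9%). The strongest ph-p peak aligned to the ph-d region over 36 bases only, of which 30 were identical with 1 gap, and the best candidate there had a pooled signal of 19.0 and did not pass the threshold.

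The sequence of the strongest ph-p peak is given because it held none of the 8 words searched at the members' summits. Stretches of ph-p and ph-d that reach beyond their local alignment are given because a word stands at the same offset in both. All are plus-strand letters of RefSeq Release 6, the dm6 assembly, at chrX:2137228-2137479, chrX:2137760-2137893 and chrX:2123957-2124090. Capitals mark ACAGTGG.
ph-p strongest peak: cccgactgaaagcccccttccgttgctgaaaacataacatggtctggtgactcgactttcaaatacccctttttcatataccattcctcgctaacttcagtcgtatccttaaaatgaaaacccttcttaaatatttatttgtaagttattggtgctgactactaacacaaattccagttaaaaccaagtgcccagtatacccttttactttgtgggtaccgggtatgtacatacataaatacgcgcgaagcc
ph-p second peak, aligned stretch: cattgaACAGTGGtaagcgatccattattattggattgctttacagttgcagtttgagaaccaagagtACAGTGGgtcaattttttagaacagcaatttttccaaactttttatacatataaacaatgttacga
ph-d peak, aligned stretch: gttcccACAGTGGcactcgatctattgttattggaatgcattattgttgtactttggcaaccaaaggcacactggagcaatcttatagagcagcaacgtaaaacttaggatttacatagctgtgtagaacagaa

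The first ACAGTGG copy of the ph-p stretch (chrX:2137766-2137772) has all 7 bases at the same offset in ph-d, and the second has 6 of 7. The first copy lies before the called ph-p peak and before the local alignment, which both begin at chrX:2137777. The stretches were started from this copy, so the shared word is not part of the locally aligned sequence. Laid side by side without gaps from 6 bases before the first copy to the ph-p summit, 75 of 134 bases were identical. Of these 75, 60 lie in the 79 bases of the local alignment. At this fixed offset the summit at ph-d lay 25 bp to the left of the summit at ph-p. Both summits lie past the end of the local alignment (chrX:2137855 in ph-p and chrX:2124052 in ph-d). The 25 bp is therefore not a distance between aligned bases. How the tandem copy affects the mapping of reads was not tested, and both regions are assigned as the authors' lists give them.

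**Figure D2:**
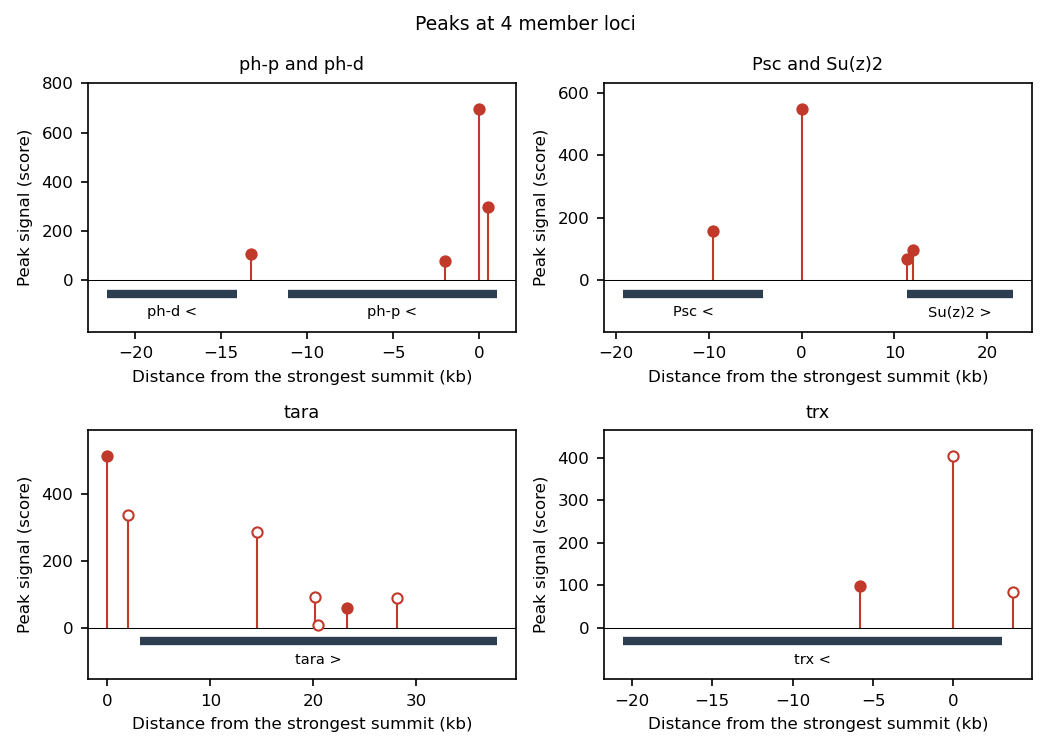
Peak signal (score) against distance in kb from the strongest summit at 4 loci. Filled circles are pooled peaks, open circles are candidates past the threshold but absent from the list, and dark bars are genes with < or > for the strand; the strongest summit of each locus lies within 5 kb of a TSS of ph-p, Psc, tara or trx.

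Psc and Su(z)2, neighbouring and homologous RING-domain genes of which Psc encodes a core PRC1 subunit, carried 4 peaks over 21575 bp of 2R. The strongest lay between them in the 15506 bp gap, 4187 bp upstream of Psc (chr2R:12985091-12985326). Its signal was 330 in replicate 1 and 216 in replicate 2 (549 pooled, rank 16), and it was in both replicate lists. A second Psc peak in an intron, 5044 bp downstream of a TSS, reached 104 in replicate 1 and 53.4 in replicate 2 (158 pooled), also in both lists. At Su(z)2 both peaks were in promoters, 66 and 65 bp downstream of 2 alternative TSSs and 623 bp apart. The stronger had 64.2 in replicate 1 and 25.01 in replicate 2 (97.4 pooled), and the weaker 38.04 in replicate 1 and 22.1 in replicate 2 (68.1 pooled). The list of replicate 2 held neither of these, and that of replicate 1 held the stronger.

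The other PRC1 genes had no peak. For such genes the best candidate is given, the one with the highest −log10 IDR. Pc, whose chromodomain reads the PRC2 mark, had a best candidate with a pooled signal of 34.6, and Scm had one of 35.7, both in coding sequence. Sce, the ubiquitin ligase of the complex, had a best candidate of 2.41, the lowest of the members with a candidate.

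In PRC2, peaks lay at the promoters of the methyltransferase gene E(z) and of Su(z)12, which encodes a core zinc-finger subunit. At E(z) the signal was 63.4 in replicate 1 and 43.6 in replicate 2 (103 pooled, rank 746), 113 bp from the TSS (chr3L:10637862-10638171), and both replicate lists held it. At Su(z)12 it was 31.0 in replicate 1 and 36.9 in replicate 2 (63.9 pooled, rank 1756), 136 bp from the TSS (chr3L:19923171-19923480), and neither list held it. Neither promoter stands alone. The TSS of Cnep1r2 lay 129 bp from the E(z) summit and that of Pfdn6 345 bp from the Su(z)12 summit, so the neighbour shares each peak. The other PRC2 genes, esc, escl, the histone chaperone gene Caf1-55, Pcl and Jarid2, had best candidates between 20.2 (Jarid2) and 34.5 (esc).

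The PhoRC and PR-DUB genes, which encode DNA-binding and deubiquitylating proteins, had no peak assigned. pho had 0 candidates at all in the ranked pooled list, and its homologue phol and their partner Sfmbt had best candidates of 6.92 and 31.8. The partner gene Asx and the deubiquitinase gene calypso had best candidates of 27.1 and 18.4. A promoter peak of 82.6 assigned to CG42837, 128 bp from its TSS, lay 581 bp from that of calypso.

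Among the other Polycomb group genes, lolal, which encodes a BTB-domain protein, had a promoter peak 90 bp from a TSS (chr2R:18156647-18156956). Its signal was 54.1 in replicate 1 and 52.9 in replicate 2 (113 pooled, rank 629). At corto, a chromodomain gene, the values were 35.9 in replicate 1 and 57.5 in replicate 2 (103 pooled), higher in replicate 2, and the summit lay 32913 bp from the TSS, past the 3' end of the gene (chr3R:5053644-5053953). E(Pc), which encodes a subunit of the Tip60 acetyltransferase complex, had 32.0 in replicate 1 and 31.3 in replicate 2 (62.0 pooled), at a summit 1315 bp upstream of its TSS that falls in the 3' UTR of the neighbouring gene qvr. The lists of single replicates held lolal and corto in replicate 2 only and E(Pc) in neither. sxc, the gene of the O-GlcNAc transferase, had a best candidate of 17.4.

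On the trithorax side, trx itself, the histone methyltransferase gene that names the group, had an intronic peak 8820 bp downstream of its TSS with a signal of 61.0 in replicate 1 and 32.7 in replicate 2 (97.7 pooled, rank 820; chr3R:14277928-14278237). A stronger candidate in intronic sequence of trx, 3013 bp downstream of the TSS, had 235 in replicate 1 and 169 in replicate 2 and 405 in the pooled data. Its −log10 IDR was 5, the highest value the list gives and above the threshold of 2, yet none of the thresholded lists used here holds it. A further region 665 bp upstream of the TSS (82.9 pooled) was absent in the same way. The other methylation genes, ash1, ash2, trr and the demethylase gene Utx, had best candidates of 31.3, 19.0, 36.3 and 33.6.

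The sequence of the strong trx candidate is given because it would rank among the strongest member regions if it were listed. The letters are from the plus strand of RefSeq Release 6 (dm6) at chr3R:14283790-14284003, and capitals mark the GAGA factor word GAGAG, which occurs here as overlapping copies.
trx absent candidate: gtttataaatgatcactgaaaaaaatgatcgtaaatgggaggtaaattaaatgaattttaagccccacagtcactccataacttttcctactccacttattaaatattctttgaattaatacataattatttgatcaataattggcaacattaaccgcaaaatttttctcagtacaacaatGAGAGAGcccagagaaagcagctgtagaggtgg

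Within the Brahma remodeller genes, osa, which encodes the ARID-domain subunit, had an intronic peak 13923 bp downstream of its TSS with a signal of 199 in replicate 1 and 133 in replicate 2 (329 pooled, rank 78). A second peak inside an intron of osa had 216 in replicate 1 and 121 in replicate 2 (341 pooled, rank 65; chr3R:17700453-17700678), but its nearest protein-coding TSS was that of CG31249, 13479 bp away, against 17800 bp for osa. Both osa regions stood in the list of either replicate. At brm, the ATPase gene, a promoter peak of 201 in replicate 1 and 133 in replicate 2 (334 pooled, rank 71; chr3L:15982944-15983106) was assigned to Arl1, whose TSS is 111 bp from the summit, while that of brm is 155 bp away. By the assignment rule, brm is counted without a peak. Its own best candidate, of 57.8, had a −log10 IDR of 1.71. The remaining Brahma genes had best candidates between 19.3 (Bap55) and 40.0 (Snr1), with mor at 33.7, Bap60 at 36.8 and Bap111 at 21.8.

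The Mediator kinase module genes skd and kto had no peak. The best skd candidate, in an intron, had 30.8 in replicate 1 and 22.5 in replicate 2, with a pooled signal of 58.3 and a −log10 IDR of 1.91. Of all member candidates, the one nearest below the threshold was an intergenic region at corto (66.8 pooled, −log10 IDR 1.96), followed by this skd candidate, and the one nearest above it was the Su(z)2 peak of 68.1 at 2.03. A promoter peak of 61.0 lay 41 bp from the TSS of Pdss2 and 440 bp from that of skd. kto had a best candidate of 38.6.

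The trithorax genes outside those complexes held 6 of the 8 peaks of their side. Trl, which encodes the GAGA factor, had a strong intronic peak between 2 of its alternative starts, with 289 in replicate 1 and 156 in replicate 2 (452 pooled, rank 32). Its second peak, in the promoter 170 bp downstream of a TSS and 2349 bp from the first, had 46.6 in replicate 1 and 42.9 in replicate 2 (91.5 pooled), and a TSS of CG42507 lay 796 bp from its summit. Both Trl peaks were in the list of either replicate. At tara, a gene whose product acts in chromatin and in cell division, the first peak lay 3151 bp upstream of the TSS, with 324 in replicate 1 and 193 in replicate 2 (513 pooled, rank 25). The second tara peak, in an intron, had 40.2 in replicate 1 and 24.0 in replicate 2 (59.2 pooled), and neither replicate's list held it. kis, a chromodomain helicase gene, had 2 intronic peaks 1370 bp apart. The stronger had 78.2 in replicate 1 and 50.6 in replicate 2 (131 pooled, rank 476), in both lists. The weaker had 25.6 in replicate 1 and 35.0 in replicate 2 (57.5 pooled), in neither. fs(1)h, a bromodomain gene, had a best candidate of 49.1 with a −log10 IDR of 1.09.

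Sequences of 4 of these trithorax-side peaks are given because they hold words discussed next. They are plus-strand letters of RefSeq Release 6 (dm6), and capitals mark any of the 8 words searched, on either strand. The regions are chr3R:17704319-17704502 for osa, chr3L:14759398-14759639 for Trl, chr3R:16222374-16222596 for tara and chr2L:223441-223641 for kis, the last being the 100 bp on each side of the summit.
osa: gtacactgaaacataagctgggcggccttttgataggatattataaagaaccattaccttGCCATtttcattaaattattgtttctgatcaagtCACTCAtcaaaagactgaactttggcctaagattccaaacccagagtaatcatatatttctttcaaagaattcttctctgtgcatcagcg
Trl: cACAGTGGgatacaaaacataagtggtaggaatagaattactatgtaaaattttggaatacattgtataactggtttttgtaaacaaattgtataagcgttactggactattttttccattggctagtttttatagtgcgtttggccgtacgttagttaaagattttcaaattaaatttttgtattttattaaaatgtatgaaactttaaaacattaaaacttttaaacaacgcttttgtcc
tara: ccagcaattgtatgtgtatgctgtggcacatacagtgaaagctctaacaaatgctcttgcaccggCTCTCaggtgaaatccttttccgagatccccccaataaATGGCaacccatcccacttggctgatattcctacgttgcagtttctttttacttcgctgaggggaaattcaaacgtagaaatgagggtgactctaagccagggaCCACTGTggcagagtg
kis: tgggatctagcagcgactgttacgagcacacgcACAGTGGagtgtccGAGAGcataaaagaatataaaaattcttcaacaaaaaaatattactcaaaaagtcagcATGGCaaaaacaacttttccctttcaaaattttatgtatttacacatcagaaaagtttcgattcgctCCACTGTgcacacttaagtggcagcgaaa

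The words were GAGAG (GAGA factor), GCCAT (core of the Pho site), CAGTAGC (core used for the odd-skipped family), ACAGTGG (ranked high over all peaks in an earlier look at these data), TATCGAT (DREF), CAGGTAG (Zelda), TGAGTG (Zeste) and GTGTGTG (Combgap repeat). None contains another, copies of 1 word may overlap, and both strands were searched for each, up to 100 bp from a summit. A match describes the letters and is not a bound site. ACAGTGG lay at 5 of the 21 member peaks, 23.8% (interval 8.22 to 47.2), beside 10.3% of all pooled peaks and 2.90% of failing candidates. In the letters above it stands once in Trl and tara and near both ends of the kis region, on opposite strands; the copy in Trl lies more than 100 bp from the summit and is not among the 5. The core CAGTAGC was at 0 of the 21, which allows a share of up to 16.1%, beside 2.41% of pooled peaks and 1.90% of failing candidates. The interval of the members holds the pooled share for both words and, for CAGTAGC, the failing share. ACAGTGG was picked from all peaks of these data, which include the 21. Its share above that of failing candidates is therefore no separate evidence.

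GAGAG occurred at 8 member peaks (38.1%, interval 18.1 to 61.6), beside 29.6% of pooled peaks and 23.5% of failing candidates. The 8 were the stronger tara and kis peaks, lolal, corto, trx, both Su(z)2 peaks and E(Pc). GCCAT was at 7 (33.3%), beside 29.0% and 40.6%, and TGAGTG at 4 (19.0%), beside 10.1% and 10.5%. GTGTGTG was at 2 (9.52%, against 8.78% of pooled peaks and 7.98% of failing candidates), TATCGAT at 1 (4.76%, against 4.37% and 2.29%) and CAGGTAG at 0 (against 1.14% and 1.30%). Every one of these shares in all pooled peaks lay inside the interval of the members.

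Within 150 bp, 11 copies of ACAGTGG lay at 7 member peaks: 3 at the second ph-p peak, 2 at each kis peak and 1 each at ph-d, Trl, tara and lolal. These 7 are 33.3% of the member peaks (interval 14.6 to 57.0), beside 13.5% of all pooled peaks and 4.20% of failing candidates. Read along the word, the summit lay downstream of 9 of the 11 copies, at a median of 99 bp (range 62 to 124). The other two were at lolal and at the weaker kis peak, with the summit within the word or just before it. This reading of the orientation was chosen after the values had been seen. It was not made over all pooled peaks, so it is not known to be particular to the members.

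**Figure D3:**
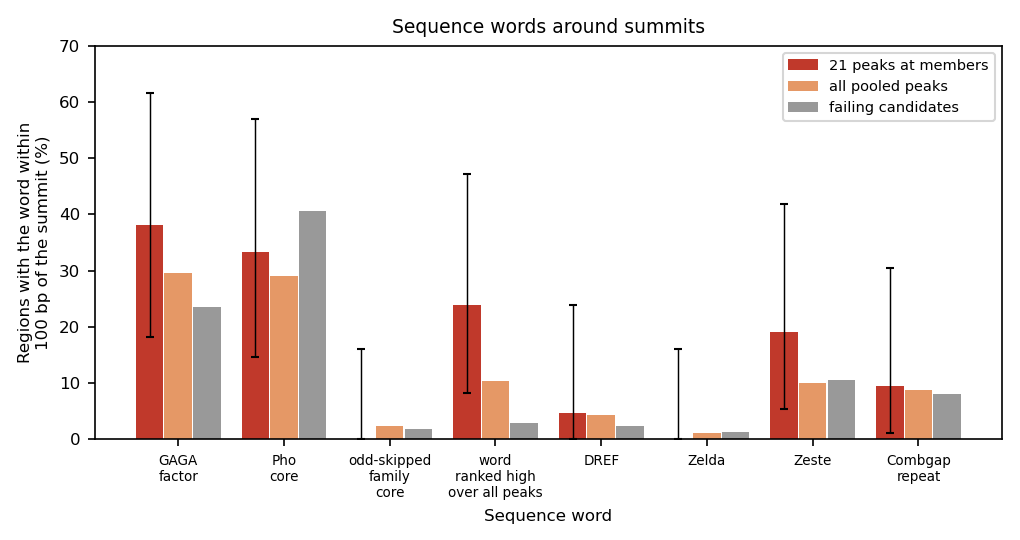
Share of regions (%) with each of 8 sequence words within 100 bp of the summit, for the 21 peaks at members, all pooled peaks and failing candidates. Error bars are 95% exact binomial intervals for the member peaks. The largest gap between the bars is at the fourth word, ACAGTGG, 23.8% against 10.3% of pooled peaks and 2.90% of failing candidates. This word was picked because it ranked high over all peaks of the same data.

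The members' peaks lay mostly outside promoters. Promoters, meaning 500 bp on each side of a TSS, held 7 of the 21 summits (33.3%, interval 14.6 to 57.0), beside 49.0% of all pooled peaks, which lies inside that interval. Introns held 9 (42.9%, interval 21.8 to 66.0, beside 33.5%), intergenic sequence 4 (19.0%, beside 13.6%), a 3' UTR 1 and coding sequence 0. The median distance to a TSS was 1315 bp for member peaks, beside 536.5 bp for all. By gene, 14.6% of members (6 genes, interval 5.57 to 29.2) had a promoter peak, beside 7.05% of all genes, which lies inside that interval. A peak elsewhere lay at 24.4% of members (10 genes, interval 12.4 to 40.3), beside 5.83%. Of the 100 strongest peaks, the member ones lay in promoters in 1 of 6 cases and the rest in 65 of 94. The strongest of the 6, at ph-p, lay 501 bp from a TSS, just beyond the 500 bp used. The cutoff of 100 was taken after the values had been seen.

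Gene length and the number of candidates moved with the presence of a peak. Members with a peak had a median length of 12641.5 bp and 22 candidates, members without one 4780 bp and 6 candidates. All protein-coding genes with a peak had medians of 5324 bp and 12 candidates, and all protein-coding genes 2162.5 bp and 5 candidates. Among genes with at least 7 candidates, the median of the members, 12 of 22 members had a peak (54.5%, interval 32.2 to 75.6), beside 19.6% of 5820 genes. The number of candidates includes the listed peaks, and this floor does not match the members to other genes in candidates or in length. The part of length in the members' count was not tested.

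**Figure D4:**
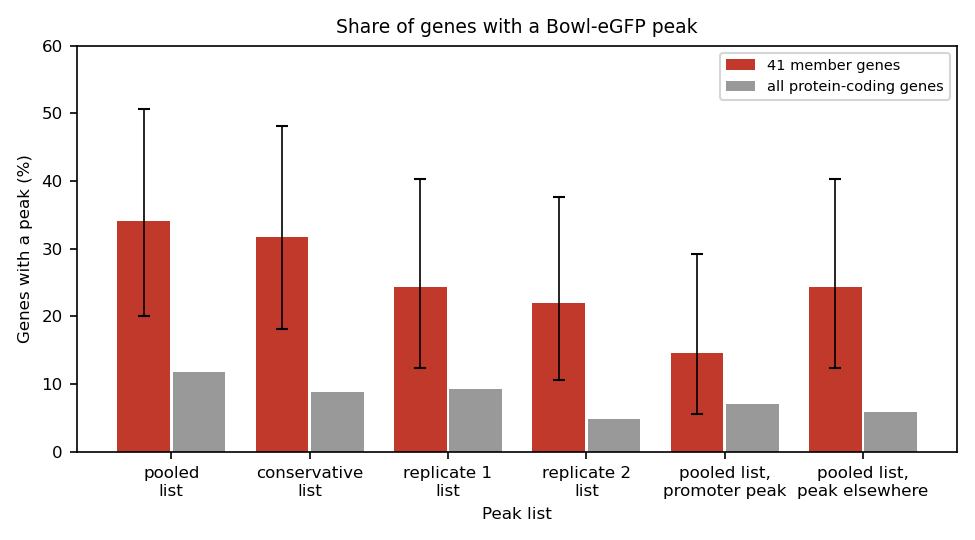
Share of genes with a peak (%), for the 41 members (left bar, with 95% exact binomial interval) and all protein-coding genes (right bar), in 4 peak lists and, for the pooled list, by position. The member bar is higher in each pair, from 34.1% against 11.7% in the pooled list to 14.6% against 7.05% for promoter peaks. For promoter peaks the interval of the members holds the share of all genes.

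The 2 replicates gave lists of unequal length. The list of replicate 1 held 1662 peaks and that of replicate 2 held 772. A peak in the list of replicate 1 lay at 10 members (24.4%, beside 9.26% of all genes), and one in the list of replicate 2 at 9 members (22.0%, beside 4.83%). In the conservative list, cut from the comparison of the replicates, 13 members had a peak (31.7%, beside 8.85%). These lists are made from the same reads as the pooled list, on whose peaks the members were proposed, so they are no independent evidence.

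Of the 21 pooled peaks at members, 14 overlapped the list of replicate 1 (66.7%, beside 65.2% of all pooled peaks) and 12 that of replicate 2 (57.1%, interval 34.0 to 78.2, beside 34.6%). Both lists held 10 (47.6%, interval 25.7 to 70.2, beside 29.1%) and neither held 5 (23.8%, interval 8.22 to 47.2, beside 29.3%). For each of these shares the value of all pooled peaks lay inside the interval of the members. Every member peak had a candidate in both ranked lists. Signal was higher in replicate 1 at 18 of 21 (85.7%, beside 84.9%), the exceptions being corto, Su(z)12 and the weaker kis peak. The list of replicate 1 also held a Su(z)2 peak of 45.9, 18638 bp from the TSS, that the pooled list lacks. In the pooled ranked list the 6 strongest had a −log10 IDR of 5, the highest value given, which 107 of the 2198 peaks reached (28.6% of member peaks, beside 4.87%). In the list that compares the replicates, the second ph-p peak had 4.73 and the rest of the 6 had 5. Under 2 there were the weakest ph-p peak (1.08), the weaker kis (1.53), Su(z)2 (1.54) and tara (1.79) peaks and E(Pc) (1.95). The conservative list held 16 of the 21 (76.2%, beside 65.7%).

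**Figure D5:**
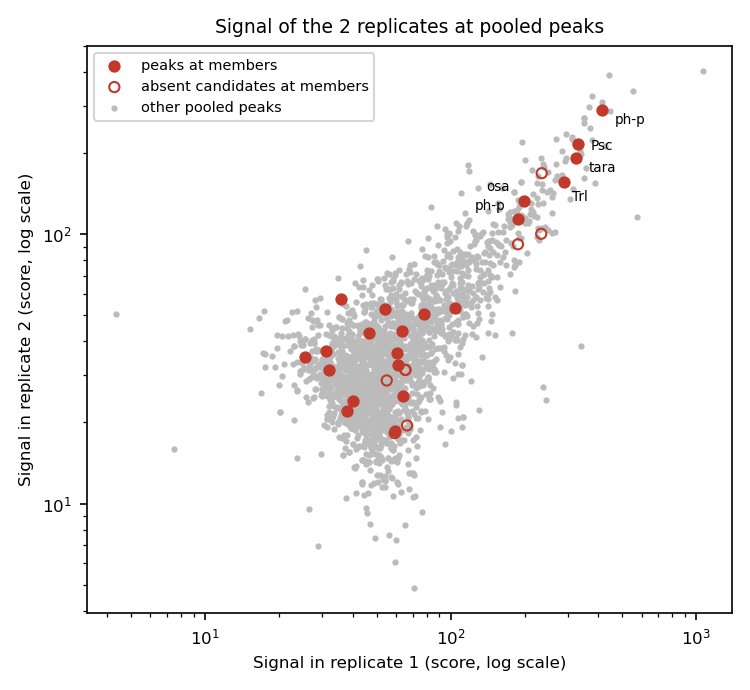
Signal in replicate 2 against signal in replicate 1, both scores on log axes, at pooled peaks. Filled red circles are peaks at members, open red circles candidates at members that the lists lack, and grey dots other pooled peaks; the 6 labelled peaks have the highest values among the listed peaks at members in both replicates, while 2 open circles (trx and tara) lie above some of them in replicate 1; the labelled ones run from 413 and 290 at ph-p to 188 and 114 at the second ph-p peak.

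Candidates past the threshold that the pooled list lacks lay at tara, trx and corto among the members. There were 89 such candidates in all, 51 of them on 3R, and 8 of the 89 lay at members (8.99%, beside 0.955% of listed peaks): 5 at tara, 2 at trx and 1 at the corto promoter. All 8 are on 3R, so this share rests on 3 genes of 1 arm. At tara the strongest, 1149 bp upstream of the TSS, had 234 in replicate 1 and 100 in replicate 2 (336 pooled, chr3R:16224412-16224595). The next, in an intron, had 188 in replicate 1 and 91.8 in replicate 2 (284 pooled, chr3R:16236878-16237029). The 3 weaker ones had pooled signals of 92.6, 88.4 and 8.89, of which the last overlaps the first. The one of 88.4 had 66.5 in replicate 1 and 19.5 in replicate 2. The corto one had 59.2 in replicate 1 and 18.3 in replicate 2 (67.9 pooled). In the list that compares the replicates, these tara and corto candidates had a −log10 IDR of 1.27 and 0.130, under the threshold of 2. With these candidates added, tara would have 7 entries, of which 2 overlap and take the same replicate values, and trx 3. The number of members with a peak would still be 14. Why the lists lack them was not tested.

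Non-coding genes lay closer to some of these summits. With TSSs of all gene types, the nearest one was that of a long non-coding RNA for 6 of the 21 peaks. The same count was not made over all pooled peaks, so whether this is usual is not known. It was 22 bp away for the stronger kis peak (CR44222), 61 bp for corto (CR45588), 186 bp for the intergenic Psc peak (CR44339), 732 bp for osa (CR46035) and 895 bp for tara (CR45643). For the weaker kis peak it was 1392 bp away (CR44222).

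Of 43 other genes of these pathways, 9 had a peak (20.9%), between the 34.1% of the members and the 11.7% of all genes. No interval was made for this share, so no difference from either value is claimed. Those in the recruitment and accessory list gave 6 of 13. The strongest was at Adf1, a Myb-like transcription factor gene, with 196 in replicate 1 and 221 in replicate 2 (396 pooled, rank 45). It was followed by the epidermal factor gene grh (94.5), the HMG-box gene Dsp1 (80.3), the BTB-domain gene psq (74.0), the zinc-finger gene jing (68.7) and the zinc-finger gene cg (60.2). Among 10 other trithorax and remodelling genes, nej, which encodes the acetyltransferase CBP, had an intergenic peak of 173 and tna an intronic one of 65.7. Brd7-9 was the 1 of 7 further Brahma genes with a peak (89.5). Candidates numbered 107 at jing, 77 at tna, 60 at psq, 57 at grh and 27 at nej. They numbered 12 at cg, 7 at Dsp1, 6 at Brd7-9 and 5 at Adf1, beside a median of 5 over all protein-coding genes. The part of candidate number in this share was not tested. None of the 11 COMPASS genes or the 2 further Mediator kinase genes had one. Kdm2, a demethylase gene, had 5 candidates past the threshold that the list lacks, the strongest at 126.

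Taking the 27 members without a peak together, 1 had no candidate. The best candidates of the rest, chosen by −log10 IDR before signal, had pooled signals from 2.41 to 58.3, with a median of 32.7. These candidates had a median −log10 IDR of 0.549, and 23 were under 1. The 504 failing candidates at members had a median signal of 20.6, beside 18.4 for all failing candidates.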

How the data were processed

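Bowl-eGFP ChIP-seq of whole embryos in 2 biological replicates was analysed from deposited peak lists on dm6, per the labels. The labels call them biological replicates and say nothing of separate collections. The peak signal is a score deposited by the authors; the −log10 of the irreproducible discovery rate (IDR), which measures how well ranks repeat, was also deposited by the authors, and 2 stands for an IDR of 0.01. Summit offsets are as deposited. The read depth, aligner, peak caller and normalization are each not given in the sources used here. Chromatin was sheared with a stated size range of 200 to 800, per the labels. The pooled list (2198 peaks) was matched to its ranked list (132019 candidates) with all 2198 found, against 1421 in the list that compares replicates. A failing candidate has a −log10 IDR under 2.

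Each summit went to the gene with the closest protein-coding TSS in Ensembl release 115 (BDGP6.54). Classes were promoter (500 bp), coding sequence, 5' UTR, 3' UTR, intron and intergenic, in that order. Replicate values are the strongest candidate overlapping a peak by at least 1 bp. Words were searched in RefSeq Release 6 on the main arms. Alignment of the ph genes was local (match 2, mismatch -3, gap opening -5, extension -2). Counting used Python 3.11.15, pandas 2.3.3, numpy 2.4.6, scipy 1.17.1 and Biopython 1.88, and was tested on simulated data. calypso and lid were matched as caly and Kdm5 through RefSeq synonyms.

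The members and the lists were chosen with earlier results of these data known. Every member with a peak is described, every other member is given by its best candidate, and other pathway genes are named where they have a peak. With 1 group there is no test between groups. Alternatives were other lists, thresholds, assignments, promoter widths, overlaps, word windows and single replicates.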

Additional observations from a re-analysis of the deposited data

How the results depend on the processing

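Of 34 alternatives to the main counts, shares and medians, 31 stayed within 1.5 times the count or within the interval of the value, and 3 that leave out 1 replicate did not. The alternatives reuse the same reads and the interval of the promoter share is wide (14.6 to 57.0), so staying within these bounds is a weak check. The medians of single replicates are on other scales, so their place inside or outside the pooled interval says little. Without 1 replicate, 9 to 10 members had a peak (14 in the pooled list), 12 to 17 peaks lay at members (21) and the median signal was 64.2 to 85.9 (103), each replicate on its own scale. Members with a peak numbered 11 to 15 under the other lists, thresholds and assignments. The share in promoters ran from 28.6% to 42.9%. Of 16 word counts at other windows, 8 moved by over 1.5 times, among them GAGAG (3 within 50 bp and 13 within 150 bp, against 8) and ACAGTGG (2 within 50 bp, against 5). The number of peaks limits all shares, and the read depth behind a peak is unknown. No paired analysis was possible because there is 1 group only.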
